A study of Mus musculus with 16 samples.

Results

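Cytochrome P450 genes of families 1 to 4 encode haem enzymes that oxidise drugs, pollutants, steroids and fatty acids. The array's value table held 106 spots for 75 such genes among 20863 named genes. Members were taken by gene symbol, as Cyp followed by a family number from 1 to 4, a subfamily letter and a gene number. For each gene the spot with the highest mean signal was used, and the other spots of 19 genes served as a check. Of the 75 genes, 35 had a mean log2 signal of 6.5 or more over all arrays and are described by their values. These were 2 of 3 genes in family 1, 20 of 44 in family 2, 2 of 8 in family 3 and 11 of 20 in family 4. The other 40 genes, among them Cyp1a2, lay under 6.5 and are counted only. Cyp3a11 at a mean of 6.503 lay just inside that limit and Cyp4a31 at 6.459 just outside it.

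Total RNA from whole lungs of C57BL/6 mice aged 9 to 12 weeks was hybridised to Agilent arrays in 1 colour (Cy3), with 0.2 µg of RNA per array and 16 arrays in all. The 4 groups were bleomycin with the CAV1 target site blocker (6 arrays), bleomycin with the control blocker (6), the CAV1 blocker with PBS (2) and the control blocker with PBS (2). Target site blockers are oligonucleotides that keep microRNAs off 1 binding site, and the CAV1 blocker is directed at the transcript of caveolin 1. Bleomycin at 1 unit/kg or PBS, the saline vehicle, went into the trachea, and a blocker was instilled there 3 times, at 4 and at 2 days beforehand and once more 4 days later. The dose was 5 mg/kg for the CAV1 blocker and was not stated for the control blocker, and the time of lung collection was not stated. Bleomycin is a cytotoxic drug that injures the lung and leads to fibrosis. The labels number the replicates and do not state that they were different animals. A p-value here reflects sample-to-sample spread, which may be technical.

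The lung is rich in P450 enzymes for an organ outside the liver, and most of this enzyme activity sits in club cells of the airway and in alveolar type 2 cells. P450 enzymes of the endoplasmic reticulum take electrons from the reductase Por, and the epoxides and alcohols they make are passed to hydrolases, transferases and dehydrogenases. Family 1 genes are switched on by the aryl hydrocarbon receptor, families 2 and 3 act mainly on drugs and steroids, and family 4 hydroxylates fatty acids and lipid mediators.

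All arrays had a median log2 signal of 6.51 to 6.52 and a maximum of 18.28, so genes under 6.5 sat near the lower end of the scale. Correlations between arrays ran from 0.971 to 0.998 over 120 pairs. The RNA integrity number was 9 in 14 samples and 10 in replicates 1 and 5 of bleomycin with the control blocker. The label of lung was matched by the marker lists, in which 7 alveolar type 2 genes averaged 15.21 to 15.74 and 7 club cell genes 13.87 to 14.32 in every array. Several libraries stood apart within their groups. PBS control blocker array 2 gave the highest signal of all 16 arrays for 11 of the 35 described P450 genes. The same count over all genes was not made. P450 calls lost without this array are named beside each result. Where an array of a PBS group was left out, that group held 1 array, which the fit assumes to vary like the other groups. A list of 8 squamous epithelium genes was at 6.30 to 6.49 in 5 arrays (bleomycin CAV1 blocker array 3, bleomycin control blocker arrays 2 and 6, and both arrays of PBS with the CAV1 blocker) and at 11.20 to 12.46 in the other 11. A list of 6 hepatocyte genes averaged 8.002 in bleomycin CAV1 blocker array 4 and at most 7.01 in the other 15. In whole lung, fewer cells of a type and less RNA per cell cannot be told apart.

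**Figure D1:**
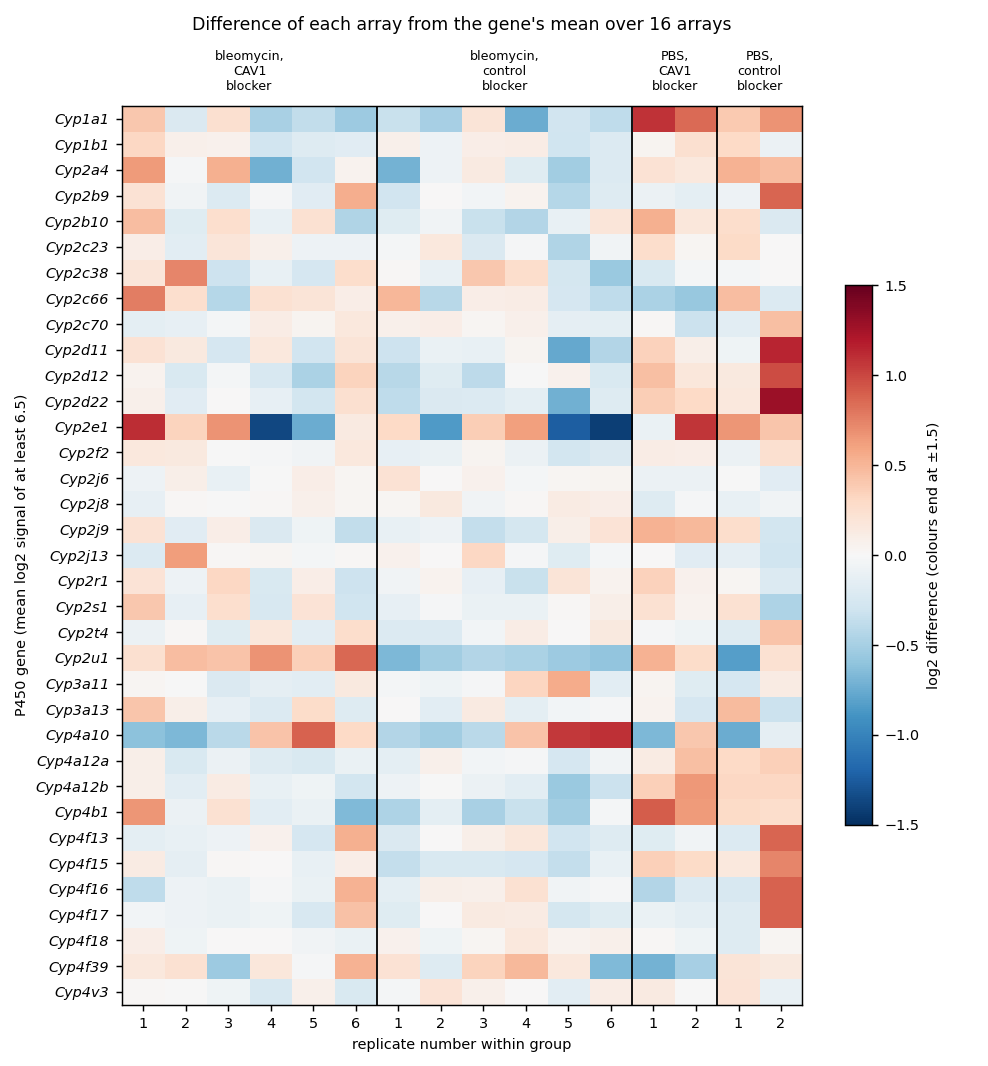
Log2 difference of each array from the mean of the gene over 16 arrays, for the 35 P450 genes with a mean of at least 6.5. Columns are arrays by group and replicate number, red is above and blue below the gene's mean, and colours end at 1.5. PBS control blocker array 2 is red for the Cyp2d genes and for 4 Cyp4f genes, and Cyp2u1 changes colour between the bleomycin groups.

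Bleomycin against PBS, averaged over both blockers, asks which P450 genes differed in the injured lung. The filter on low values kept 70 of the 75 members, those exceeding the array's 25th percentile on 2 or more arrays. Of these 70, 7 fell and 0 rose (limma, Benjamini-Hochberg adjusted p under 0.05). Of the 20304 genes tested, 1.68% fell and 4.25% rose, or 5.93% in all. The genes that fell were Cyp1a1 of family 1, Cyp2d12 and Cyp2d22 of family 2, and Cyp4a12a, Cyp4a12b, Cyp4b1 and Cyp4f15 of family 4. Each of them had 1 spot, so the check by other spots did not cover them. With arrays weighted by their quality, Cyp2d22 and Cyp4f15 were the 2 members called, and Cyp1a1 came to an adjusted p of 0.0514. Without PBS CAV1 blocker array 1 or 2, the number called was 4 or 3. At an unadjusted p under 0.05, 10 members were lower and 2 higher, and 17.4% of all genes passed that limit. Bleomycin arrays lay wholly below PBS arrays in 3 members and wholly above in 0, against 0.433% and 1.04% of all genes. The median difference was -0.12 over the 35 described members, 24 of them below zero and 11 above. It was 0.01 over the 14667 genes with a mean of 6.5 or more, 7130 of them below zero and 7537 above.

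Promoter sequence was held for 3 of these 7 genes. The 250 bases before a transcript start of each gene are shown because Cyp1a1, Cyp4b1 and Cyp4f15 moved the same way and Cyp1a1 is a classical aryl hydrocarbon receptor target. They come from RefSeq on the mouse build GRCm38.p6, written 5′ to 3′ on the strand of the gene, and the transcript that each start belongs to is not named. The Cyp4b1 window ends where the annotated gene begins. The Cyp1a1 window ends 9685 bases and the Cyp4f15 window 28 bases inside the annotated span of the gene, counted from its first base. Capitals mark the letters GCGTG, which form the core of the longer site bound by that receptor, and TATAAA, a core promoter element. Whether the letters around a GCGTG match make up the full receptor site was not tested. Positions are chr9:57697363-57697612 on the plus strand for Cyp1a1, chr4:115647722-115647971 on the minus strand for Cyp4b1 and chr17:32685409-32685658 on the plus strand for Cyp4f15.
Cyp1a1: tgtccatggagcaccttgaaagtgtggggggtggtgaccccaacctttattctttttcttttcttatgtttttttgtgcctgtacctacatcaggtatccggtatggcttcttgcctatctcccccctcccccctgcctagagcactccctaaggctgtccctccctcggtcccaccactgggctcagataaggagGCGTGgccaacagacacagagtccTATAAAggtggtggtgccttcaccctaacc
Cyp4b1: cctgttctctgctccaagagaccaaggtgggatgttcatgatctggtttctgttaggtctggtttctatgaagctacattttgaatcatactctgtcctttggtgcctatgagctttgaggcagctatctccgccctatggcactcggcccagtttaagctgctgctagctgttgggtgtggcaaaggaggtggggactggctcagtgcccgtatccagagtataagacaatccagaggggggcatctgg
Cyp4f15: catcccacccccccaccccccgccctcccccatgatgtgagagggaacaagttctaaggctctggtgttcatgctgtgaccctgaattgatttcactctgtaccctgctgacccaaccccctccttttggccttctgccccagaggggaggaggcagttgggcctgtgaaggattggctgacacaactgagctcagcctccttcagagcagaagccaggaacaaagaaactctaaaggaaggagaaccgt
Cyp1a1 held GCGTG with its first base at -54 and TATAAA at -30, counted back from that transcript start. Cyp4b1 and Cyp4f15 held neither motif on either strand. GCGTG or its reverse CACGC occurred in 28.2% of 27025 mouse promoter windows of this length, and TATAAA or TTTATA in 13.0%. Among the 55 P450 members with a window, 11 held the first and 22 the second. A match is a description of letters and not of binding.

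Cyp1a1, which oxidises polycyclic aromatic hydrocarbons, had a lowest, median and highest log2 signal of 6.56, 6.81 and 7.51 in bleomycin CAV1 blocker arrays and 6.36, 6.75 and 7.30 in bleomycin control blocker arrays. The signals were 7.95 and 8.19 in PBS CAV1 blocker arrays and 7.501 and 7.778 in PBS control blocker arrays. Bleomycin and PBS arrays overlapped only where the highest bleomycin array met the lowest PBS array. Most bleomycin values of this spot lie near the lower end of the scale. The log2 difference was -1.002 (SE 0.176, 95% interval -1.38 to -0.63, adjusted p = 0.0041). The value lay between -1.07 and -0.93 whichever of the 16 arrays was left out, and the call held each time. Cyp1b1, the other described gene of this family, had a difference of -0.16 (SE 0.112, adjusted p = 0.537).

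Cyp4f15, a fatty acid hydroxylase, had a lowest, median and highest signal of 8.38, 8.52 and 8.63 in bleomycin CAV1 blocker arrays and 8.15, 8.27 and 8.39 in bleomycin control blocker arrays. PBS CAV1 blocker arrays were at 8.79 and 8.86 and PBS control blocker arrays at 8.66 and 9.24. Every bleomycin array lay below every PBS array. The difference was -0.51 (SE 0.0866, 95% interval -0.69 to -0.32, adjusted p = 0.0037), with the call kept whichever array was left out.

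Cyp4a12a and Cyp4a12b, neighbouring genes whose products hydroxylate arachidonic acid, are near-identical copies, so their spots may share signal. Cyp4a12b was at 6.74, 6.92 and 7.13 (lowest, median and highest) in bleomycin CAV1 blocker arrays and 6.458, 6.892 and 7.005 in bleomycin control blocker arrays. It was at 7.37 and 7.66 in PBS CAV1 blocker arrays and 7.32 in both PBS control blocker arrays. Cyp4a12a was at 6.60, 6.69 and 6.92 in bleomycin CAV1 blocker arrays, 6.59, 6.79 and 6.91 in bleomycin control blocker arrays, 6.96 and 7.29 in PBS CAV1 blocker arrays and 7.13 and 7.19 in PBS control blocker arrays. Bleomycin arrays were all lower than PBS arrays for both spots. The difference was -0.54 for Cyp4a12b (SE 0.0979, adjusted p = 0.0049) and -0.41 for Cyp4a12a (SE 0.0763, adjusted p = 0.0060). The Cyp4a12a call was lost without PBS CAV1 blocker array 2 (adjusted p = 0.0520). Both spots lie near the lower end of the scale.

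Cyp4b1, which bioactivates the lung toxin 4-ipomeanol, was one of the strongly detected spots. Its signal was 12.86, 13.43 and 14.19 (lowest, median and highest) in bleomycin CAV1 blocker arrays and 13.00, 13.12 and 13.50 in bleomycin control blocker arrays. It was 14.16 and 14.43 in PBS CAV1 blocker arrays and 13.78 and 13.81 in PBS control blocker arrays. One bleomycin array, CAV1 blocker array 1 at 14.19, lay among the PBS arrays, and the others lay below them. The difference was -0.70 (SE 0.169, 95% interval -1.06 to -0.34, adjusted p = 0.0233). The call was lost without PBS CAV1 blocker array 1 (-0.63, adjusted p = 0.152), without PBS CAV1 blocker array 2 (-0.77, 0.0574) and without PBS control blocker array 2 (-0.71, 0.0563).

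Cyp2d22, often taken as the mouse counterpart of human CYP2D6, had a lowest, median and highest signal of 6.83, 7.05 and 7.34 in bleomycin CAV1 blocker arrays and 6.39, 6.89 and 6.96 in bleomycin control blocker arrays. PBS CAV1 blocker arrays were at 7.400 and 7.479 and PBS control blocker arrays at 7.26 and 8.39. The ranges overlapped only at the lower PBS control blocker array. Most bleomycin values of this spot lie near the lower end of the scale. The difference was -0.70 (SE 0.157, adjusted p = 0.0153), and it was -0.42 (adjusted p = 0.0616) without PBS control blocker array 2. The call was also lost without PBS CAV1 blocker array 1 (adjusted p = 0.0922) or array 2 (0.0579).

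Cyp2d12, of the same subfamily and gene cluster, was at 6.93, 7.28 and 7.74 (lowest, median and highest) in bleomycin CAV1 blocker arrays and 6.99, 7.20 and 7.48 in bleomycin control blocker arrays. PBS arrays were at 7.58 and 7.86 with the CAV1 blocker and at 7.55 and 8.39 with the control blocker. One bleomycin array, CAV1 blocker array 6, reached into the PBS range. The difference was -0.58 (SE 0.152, adjusted p = 0.0352), and the call held in 8 of 16 fits that left out 1 array. It was lost without PBS CAV1 blocker array 1 or 2, PBS control blocker array 2, bleomycin control blocker array 1, 2 or 3, or bleomycin CAV1 blocker array 2 or 4. Over all 16 such fits the difference lay between -0.79 and -0.37, the last of these without PBS control blocker array 2 (adjusted p = 0.158). Cyp2d11, which lies next to Cyp2d22 in the genome, had a difference of -0.51 (SE 0.184, adjusted p = 0.135). It was -0.21 without that array and -0.81 without PBS control blocker array 1. Because Cyp2d genes are near-identical in places, the signal of each spot may come in part from its relatives.

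**Figure D2:**
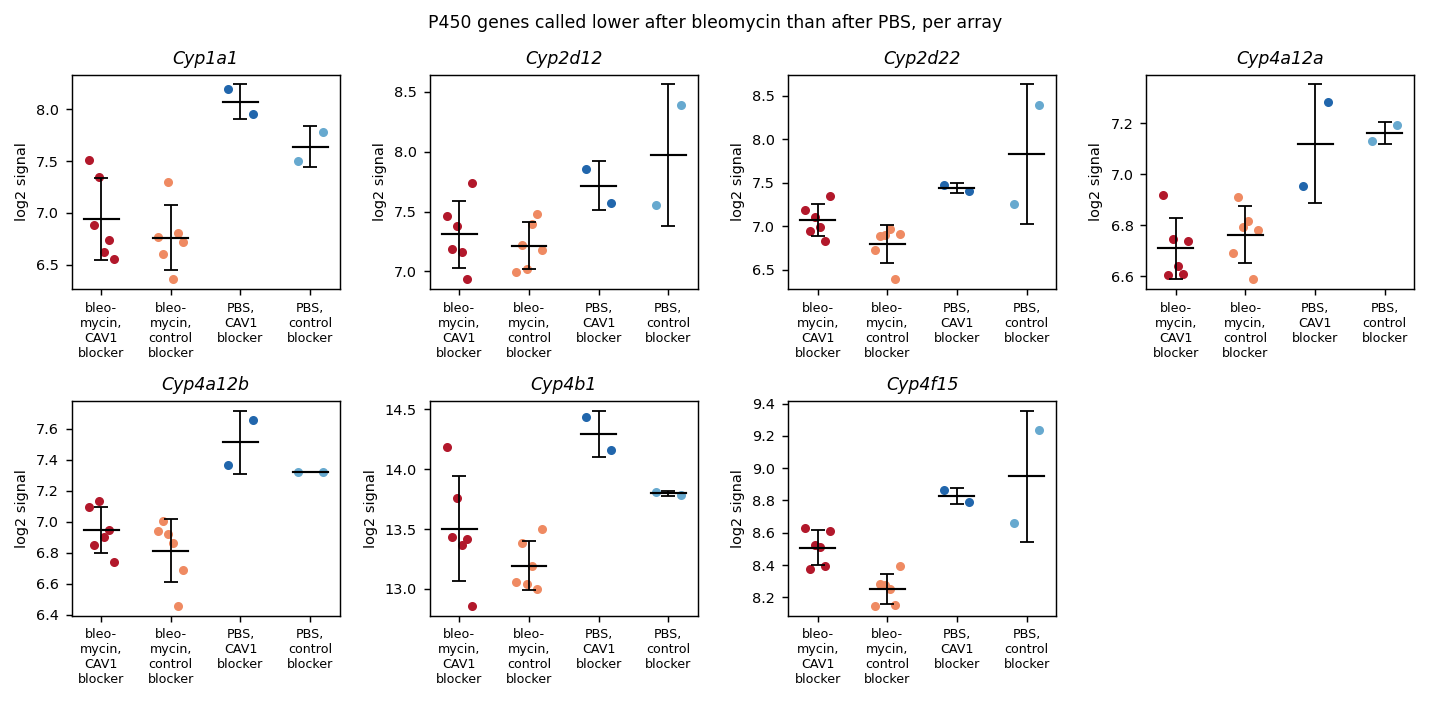
Log2 signal per array of the 7 P450 genes called lower after bleomycin than after PBS. Points are arrays, horizontal lines are group means and bars are the SD (6 arrays in each bleomycin group, 2 in each PBS group). Cyp4f15, Cyp4a12a and Cyp4a12b have no overlap between bleomycin and PBS arrays, and 1 PBS control blocker array stands high for Cyp2d12 and Cyp2d22.

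Of the 8 members with the highest mean signal, only Cyp4b1 passed the test of bleomycin against PBS, and the other 7 did not. Levels of different spots are not comparable with each other, since each probe binds with its own strength. Cyp2f2, the club cell enzyme that bioactivates naphthalene in mice, had a lowest, median and highest signal of 16.91, 17.04 and 17.12 in bleomycin CAV1 blocker arrays and 16.69, 16.86 and 17.00 in bleomycin control blocker arrays. PBS arrays had 17.07 and 17.08 with the CAV1 blocker and 16.88 and 17.20 with the control blocker. The groups overlapped, with a difference of -0.12 (95% interval -0.28 to 0.03, adjusted p = 0.443). Without PBS control blocker array 2 it was -0.04. Whether this bright spot was saturated was not tested.

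Cyp2b10, a drug-metabolising enzyme induced through the receptor Nr1i3 in liver, was at 14.81, 15.32 and 15.72 (lowest, median and highest) in bleomycin CAV1 blocker arrays and 14.82, 15.11 and 15.44 in bleomycin control blocker arrays. In PBS arrays it was at 15.43 and 15.79 with the CAV1 blocker and 15.05 and 15.52 with the control blocker. The difference was -0.25 (95% interval -0.57 to 0.08, adjusted p = 0.467), with overlap. Cyp2s1, a P450 found mainly outside the liver, was at 13.84, 14.19 and 14.55 in bleomycin CAV1 blocker arrays, 14.02, 14.09 and 14.23 in bleomycin control blocker arrays, 14.19 and 14.37 in PBS CAV1 blocker arrays and 13.68 and 14.38 in PBS control blocker arrays. Its groups overlapped, and it differed by -0.01 (95% interval -0.30 to 0.27, adjusted p = 0.976).

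Cyp2a4, a steroid hydroxylase whose spot may also bind RNA of its near-identical relative Cyp2a5, was at 12.33, 13.08 and 13.69 (lowest, median and highest) in bleomycin CAV1 blocker arrays and 12.35, 12.86 and 13.19 in bleomycin control blocker arrays. PBS arrays were at 13.21 and 13.27 with the CAV1 blocker and 13.52 and 13.58 with the control blocker. Bleomycin and PBS arrays overlapped. The difference of -0.45 (SE 0.201, adjusted p = 0.256) did not pass the test, and a second Cyp2a4 spot gave -0.44. Cyp4f18, which inactivates leukotrienes in mouse neutrophils, varied little. It was at 11.91, 11.98 and 12.10 in bleomycin CAV1 blocker arrays, 11.94, 12.06 and 12.17 in bleomycin control blocker arrays, 11.94 and 12.02 in PBS CAV1 blocker arrays and 11.81 and 12.04 in PBS control blocker arrays. Groups overlapped. Its difference was 0.07 (95% interval -0.06 to 0.19, adjusted p = 0.638). Its SD over the 16 arrays was 0.0870, and 3.57% of genes had a smaller SD.

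Cyp2e1, which oxidises ethanol and small solvents and is high in liver and fat, varied most among the described members, with an SD of 0.850 that exceeded that of 99.1% of genes. Its lowest, median and highest signals were 10.87, 12.47 and 13.34 in bleomycin CAV1 blocker arrays and 10.83, 11.95 and 12.85 in bleomycin control blocker arrays. PBS CAV1 blocker arrays were at 12.13 and 13.31 and PBS control blocker arrays at 12.64 and 12.89. The difference of -0.68 (95% interval -1.63 to 0.27, adjusted p = 0.508) did not pass the test, and its second spot also gave -0.68. Bleomycin CAV1 blocker arrays 4 and 5 and bleomycin control blocker arrays 2, 5 and 6 lay at 10.83 to 11.49 and the other 11 arrays at 12.13 to 13.34. The mean of 7 adipocyte markers was 9.51 to 10.17 in those 5 and 10.47 to 11.88 in the other 11. The part of adipocyte RNA in the Cyp2e1 values was not tested.

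The remaining described members did not pass the test after bleomycin. Cyp2j9, of a subfamily that makes epoxides from arachidonic acid, differed by -0.34 (adjusted p = 0.136), while its relatives Cyp2j6 and Cyp2j8 differed by 0.12 (0.346) and 0.13 (0.260). Whether Cyp2j9 passed depended on PBS control blocker array 2 being in the fit. Cyp2r1, a vitamin D hydroxylase, differed by -0.08 (95% interval -0.32 to 0.17). Cyp4v3, a fatty acid hydroxylase, differed by -0.08 (95% interval -0.25 to 0.10). The 2 described family 3 genes, Cyp3a11 and Cyp3a13, differed by 0.09 and 0.02, with intervals of -0.16 to 0.34 and -0.27 to 0.31.

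**Figure D3:**
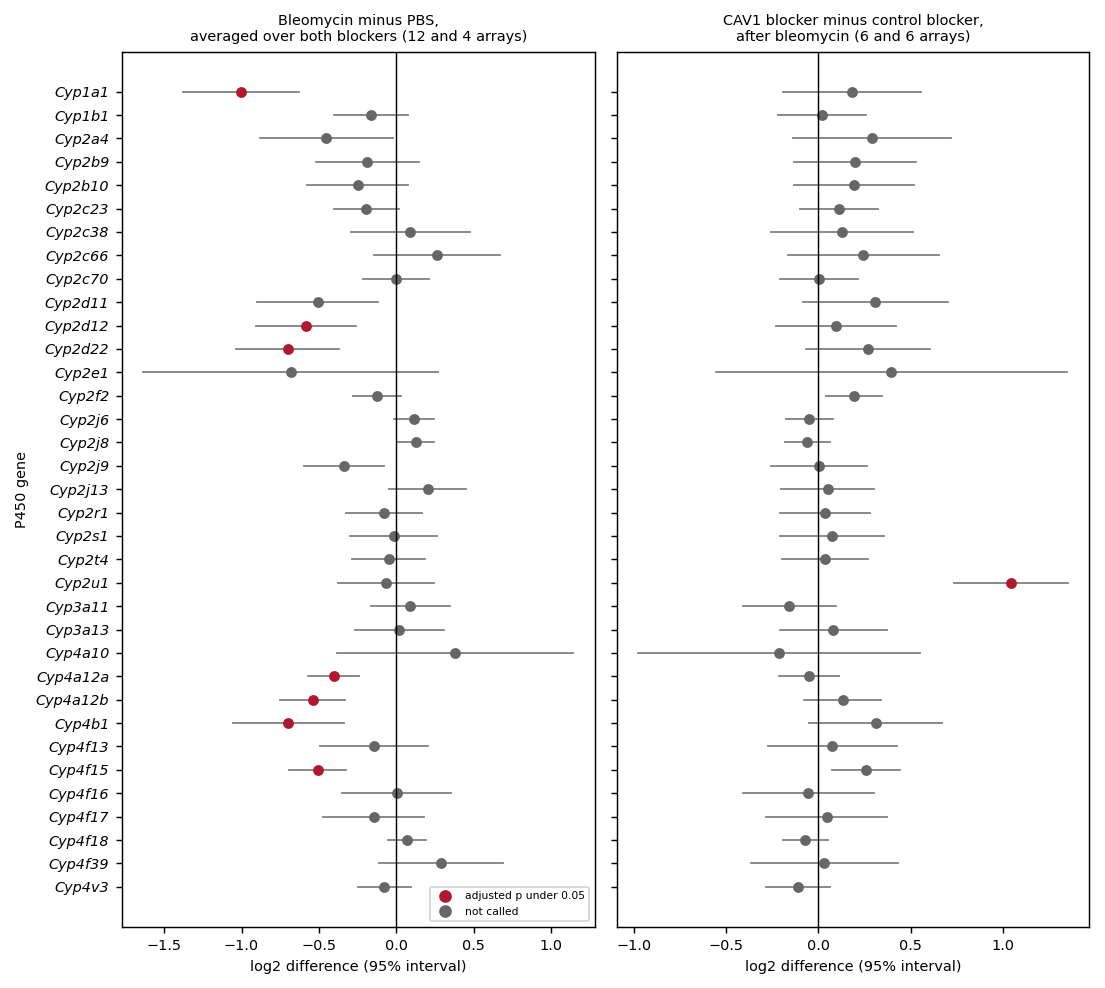
Log2 difference with its 95% interval for each of the 35 described P450 genes, for bleomycin minus PBS averaged over both blockers (left) and for CAV1 blocker minus control blocker after bleomycin (right). Red points passed an adjusted p under 0.05. The 7 red points on the left lie below zero, and Cyp2u1 is the 1 red point on the right.

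Under the control blocker alone, bleomycin arrays (6) against PBS arrays (2) gave 2 members lower and 0 higher, where 0.448% of all genes were lower and 1.96% higher (limma, 2.41% in all). Without adjustment, at p under 0.05, 10 members were lower and 2 higher, and 15.9% of all genes passed. Bleomycin arrays lay wholly below PBS arrays in 8 members and wholly above in 5, against 4.04% and 8.55% of all genes. Cyp4f15 fell by 0.70 (log2 difference -0.70, SE 0.123, adjusted p = 0.0174) and Cyp2d22 by 1.03 (-1.03, SE 0.223, adjusted p = 0.0293). Both rested on PBS control blocker array 2, without which the differences were -0.41 (adjusted p = 0.184) and -0.46 (0.407). The Cyp2d22 call was also lost without bleomycin control blocker array 1 (-1.02, adjusted p = 0.0626). Without PBS control blocker array 1, the number of members called became 13, and 4 without bleomycin CAV1 blocker array 1. Without PBS control blocker array 1, Cyp2d22 differed by -1.60. In a fit to the compared arrays only, and with array weights, neither gene was called.

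Under the CAV1 blocker, 0 of 70 members passed the test, where 0.517% of all genes did (0.345% higher and 0.172% lower). Without adjustment, at p under 0.05, 7 members were lower and 2 higher, and 14.8% of all genes passed that limit. Cyp1a1 differed by -1.13 (SE 0.249, adjusted p = 0.0556) and Cyp4a12b by -0.57 (SE 0.139, adjusted p = 0.0708). In both, every bleomycin array was below both PBS arrays. That held for 6 members and 12.3% of genes tested, and the opposite for 2 members and 8.38%. In the other direction, Cyp2c66, of a subfamily of arachidonic acid epoxygenases, differed by 0.71 (SE 0.271, adjusted p = 0.227). Cyp4f39, a fatty acid hydroxylase of the skin barrier, differed by 0.69 (SE 0.265, adjusted p = 0.228). The count of 0 became 5 without bleomycin CAV1 blocker array 1, 1 without PBS CAV1 blocker array 1 or either PBS control blocker array, and 11 with array weights. The effects under the CAV1 and control blockers share no array.

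The test of the difference between those effects, the interaction of blocker and bleomycin, called 0 members and 0% of all genes (limma). At an unadjusted p under 0.05, 4 members were above zero and 1 below, and 9.22% of all genes passed. The 1 below zero was Cyp3a16, which lay under the limit of 6.5 (-0.45, SE 0.135, adjusted p = 0.497). The count called became 9 without PBS control blocker array 1, and it was 1 when PBS CAV1 blocker array 1 was left out. Among the 35 described members, the smallest p-values were those of Cyp2c66 (0.89, SE 0.384, adjusted p = 0.497) and Cyp2b9 (0.72, SE 0.312, adjusted p = 0.497) above zero and of Cyp2j9 (-0.50, SE 0.243, adjusted p = 0.497) and Cyp2r1 (-0.26, SE 0.231, adjusted p = 0.582) below it. For Cyp1a1 the interaction was -0.25 (SE 0.352, adjusted p = 0.728) and for Cyp4f15 0.38 (95% interval 0.01 to 0.75, adjusted p = 0.497). These values moved with the PBS control blocker arrays. Without array 2, Cyp4f15 came to 0.09, Cyp2b9 to 0.25, Cyp2j9 to -0.23, Cyp2r1 to -0.15 and Cyp1a1 to -0.39, while Cyp2c66 came to 1.23. Without array 1, Cyp4f15 came to 0.67, Cyp2b9 to 1.19, Cyp2c66 to 0.55 and Cyp2j9 to -0.77.

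CAV1 blocker against control blocker after bleomycin (6 arrays each) asks whether the blocker altered P450 expression in the injured lung. Of 70 members, 1 rose and 0 fell, where 1.2% of all genes rose and 0.414% fell (limma, 1.61% in all). Without adjustment, at p under 0.05, 3 members were higher and 3 lower, and 9.08% of all genes passed. The gene called was Cyp2u1, which hydroxylates long-chain fatty acids. Its brighter spot had a lowest, median and highest signal of 14.66, 14.88 and 15.29 in bleomycin CAV1 blocker arrays, against 13.76, 13.90 and 13.98 in bleomycin control blocker arrays. All CAV1 blocker arrays lay above all control blocker arrays, as in 1.5% of genes tested, and the opposite was seen in 0 members and 0.832% of genes. The difference was 1.05 (SE 0.145, 95% interval 0.74 to 1.35, adjusted p = 0.0011). It lay between 0.97 and 1.10 whichever of the 16 arrays was left out, and the call held in each of these fits and under all 13 other settings tried.

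Cyp2u1 had 2 spots, which disagreed. The brighter one carries an accession that is not a RefSeq transcript. The other carries a RefSeq transcript accession, averaged 6.04, near the lower end of the scale, and differed by 0.10 (SE 0.0834). The statement on Cyp2u1 therefore rests on 1 spot, whose assignment to the gene is that of the platform annotation. After PBS the brighter spot was at 14.71 and 14.95 with the CAV1 blocker and at 13.60 and 14.66 with the control blocker. These groups did not overlap, and 23.7% of all genes were likewise wholly above in this comparison of 2 arrays with 2. The difference was 0.70 (SE 0.251, adjusted p = 0.352), and 1.23 (adjusted p = 0.00800) without PBS control blocker array 2, at 14.66. That last value sets 2 arrays against 1, whose spread is assumed to be that of the other groups. Without PBS control blocker array 1 it was 0.17 (adjusted p = 0.584). Bleomycin against PBS averaged over both blockers gave -0.07 for this spot (95% interval -0.37 to 0.24, adjusted p = 0.886).

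**Figure D4:**
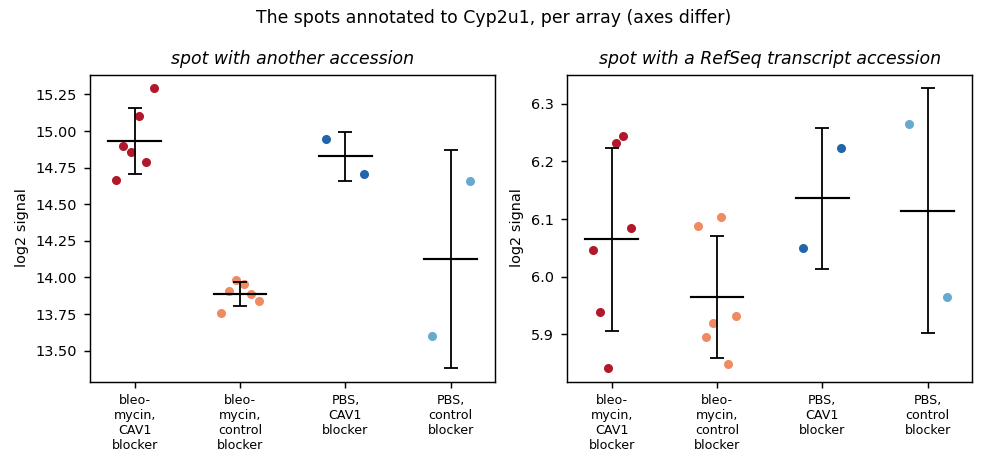
Log2 signal per array of the 2 spots annotated to Cyp2u1 (the axes differ). Points are arrays, lines are group means and bars are the SD. The brighter spot separates the bleomycin CAV1 blocker arrays from the bleomycin control blocker arrays, and the dimmer spot, averaging 6.04, does not.

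For the other members the CAV1 blocker difference after bleomycin did not pass the test. It lay above zero in 27 of the 35 described members and below in 8, with a median of 0.07. Over all genes with a mean of 6.5 or more, 6592 lay above zero and 8075 below, with a median of -0.01. The signs come from the same arrays and are not independent of each other. Next by p were Cyp4f15 (0.26, SE 0.0866, adjusted p = 0.250) and Cyp2f2 (0.19, SE 0.0725, adjusted p = 0.349). Of the genes that fell with bleomycin, Cyp1a1 differed by 0.18 (95% interval -0.19 to 0.56), Cyp2d22 by 0.27 (-0.07 to 0.60), Cyp4b1 by 0.31 (-0.05 to 0.67) and Cyp4a12a by -0.05 (-0.22 to 0.11). This comparison and that of bleomycin with PBS share the bleomycin arrays. Cyp2b10 differed by 0.19, Cyp2a4 by 0.29, Cyp2e1 by 0.40, Cyp2s1 by 0.07 and Cyp4f18 by -0.07, with adjusted p between 0.811 and 0.964.

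After PBS (2 arrays each), 0 members passed the test of the CAV1 blocker against the control blocker, where 0.276% of all genes were higher and 0.0345% lower (limma, 0.31% in all). Without adjustment, at p under 0.05, 5 members were higher and 2 lower, and 12.8% of all genes passed. Groups did not overlap in 13 members above and 9 below, against 23.7% and 14.7% of all genes. The count of 0 became 9 without PBS control blocker array 1. It was 1 when PBS control blocker array 2 or PBS CAV1 blocker array 1 was left out. Beside Cyp2u1, Cyp2j9 was at 9.78 and 9.81 with the CAV1 blocker and 9.02 and 9.56 with the control blocker, a difference of 0.51 (SE 0.210, adjusted p = 0.384). It was 0.78 (adjusted p = 0.0359) without PBS control blocker array 1 and 0.24 (0.9998) without array 2. Cyp4f39 was at 7.25 and 7.46 with the CAV1 blocker and 8.11 and 8.15 with the control blocker, a difference of -0.78 (SE 0.325, adjusted p = 0.384). Cyp4f16, of a fatty acid hydroxylase subfamily, was at 8.76 and 9.00 with the CAV1 blocker and 8.95 and 10.08 with the control blocker, a difference of -0.64 (SE 0.288, adjusted p = 0.386). It was -1.20 (adjusted p = 0.0147) without PBS control blocker array 1 and -0.08 (0.9998) without array 2.

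Some members followed other features of the samples within groups. Cyp4f39 lay at 7.25 to 7.77 in the 5 arrays low in squamous epithelium genes and at 7.95 to 8.48 in the other 11. Cyp2c66 lay at 5.99 to 6.18 in those 5 and at 6.31 to 7.32 in the others. Such a separation was seen in 1.34% of all genes. Both PBS CAV1 blocker arrays are among the 5. With the squamous marker mean as a covariate, Cyp4f39 differed by 0.06 and Cyp2c66 by 0.17 between bleomycin and PBS under the CAV1 blocker, and Cyp4f39 by -0.05 between the blockers after PBS. In PBS arrays, blocker and marker level coincide, since both control blocker arrays are among the other 11. The part of squamous tissue in these differences was not tested.

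Cyp4a10, a fatty acid hydroxylase induced through Ppara in liver, lay at 6.84 to 7.17 in the first 8 samples in deposit order and at 7.45 to 8.68 in the last 8. Ranges were separated in this direction in 0.236% of genes. The first and the last 8 both held all 4 groups. The first 8 were the lower replicate numbers of each group and the last 8 the higher ones. Its other 2 spots averaged 6.14 and 5.92, near the lower end of the scale. Deposit order is not stated to be a batch, and whether it marks one was not tested.

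PBS control blocker array 2 was highest of the 16 arrays for Cyp2b9, Cyp2c70, Cyp2d11, Cyp2d12, Cyp2d22, Cyp2f2, Cyp2t4, Cyp4f13, Cyp4f15, Cyp4f16 and Cyp4f17. In Cyp4f17 it was at 10.33 and PBS control blocker array 1 at 9.26, and in Cyp2d11 it was at 11.21 and array 1 at 10.00. By contrast, PBS CAV1 blocker array 1 was highest for Cyp1a1, Cyp2b10, Cyp2j9, Cyp2r1 and Cyp4b1. How often these arrays were highest over all genes was not counted.

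**Figure D5:**
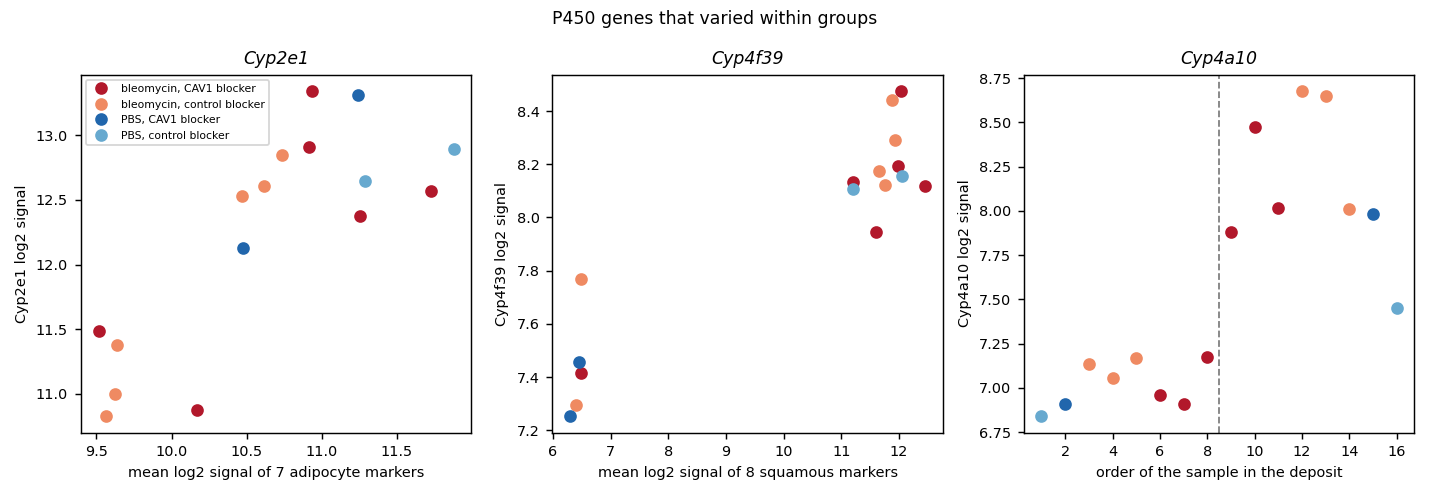
Log2 signal per array of Cyp2e1 against the mean of 7 adipocyte markers (left), of Cyp4f39 against the mean of 8 squamous epithelium markers (middle) and of Cyp4a10 by the order of the samples in the deposit (right, dashed line between the first and last 8). Colours give the groups. Each panel shows a lower and a higher set of arrays, and the 5 low Cyp2e1 arrays are all bleomycin arrays.

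Marker lists of other cells give the setting of the P450 genes that fell. Alveolar macrophage markers fell in 4 of 7 genes with bleomycin (median -0.51), with a mean of 11.56 to 12.61 in bleomycin CAV1 blocker arrays, 11.76 to 12.11 in bleomycin control blocker arrays, 12.84 to 12.99 in PBS CAV1 blocker arrays and 12.84 to 12.92 in PBS control blocker arrays. Monocyte and macrophage markers rose in 4 of 6 genes (median 1.16). Club cell markers fell in 1 of 7 genes (median -0.19), namely Scgb3a1, a secretoglobin (-0.51, adjusted p = 0.0034). Endothelial markers fell in 1 of 7 (median -0.31), namely Kdr, a growth factor receptor (-0.53, adjusted p = 0.0049). Neutrophil markers fell in 2 of 7, and no alveolar type 2, ciliated, adipocyte, hepatocyte, skeletal muscle or squamous marker was called. Adipocyte markers had a median of -0.86. At an unadjusted p under 0.05 (limma), 6 of 7 alveolar macrophage and 5 of 7 endothelial markers were lower. So were 4 of 7 adipocyte, 3 of 7 club cell, 2 of 7 neutrophil and 1 of 7 ciliated markers. At that limit 6 of 6 monocyte and macrophage markers were higher, and 17.4% of all genes passed in either direction. Car4 is in both the endothelial and the alveolar macrophage list. The part of these cell types in the P450 values was not tested.

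The enzymes that work with P450s were counted on the same comparison of bleomycin with PBS. None of 4 electron donors passed, nor did any at an unadjusted p under 0.05 (median -0.11), among them Por, the reductase (-0.16, adjusted p = 0.451). None of 11 receptors and partners that govern P450 genes passed, and 2 were higher at an unadjusted p under 0.05 (median -0.11). Ahr, the aryl hydrocarbon receptor, differed by -0.29 (SE 0.155, adjusted p = 0.380), and Tiparp, another gene switched on by it, by 0.05 (SE 0.110, adjusted p = 0.896). Of 18 conjugating enzymes, hydrolases and dehydrogenases, 2 fell and 0 rose (median -0.14). These were Ephx2, the soluble epoxide hydrolase (-0.59, SE 0.137, adjusted p = 0.0185), and Gstm1, a glutathione transferase (-0.54, SE 0.118, adjusted p = 0.0136).

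Flavin-containing monooxygenases, the other large family of microsomal oxygenases, fell in 2 of 4 genes tested (median -0.45). The mean of the 4 was highest in PBS control blocker array 2, at 11.24, against 10.79 in array 1. Fmo1 fell by 0.66 (log2 difference -0.66, adjusted p = 0.0194) and Fmo2, the main form in lung of many mammals, by 0.63 (-0.63, adjusted p = 0.0275). Of 20 P450 genes outside families 1 to 4, 2 rose and 0 fell (median 0.01). Tbxas1, the thromboxane synthase of platelets and macrophages, rose by 0.68 (SE 0.157, adjusted p = 0.0173), and Cyp21a1, a steroid hydroxylase, by 0.27 (SE 0.0770, adjusted p = 0.0499).

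Under the control blocker alone, Ephx2 fell by 1.08 (-1.08, SE 0.194, adjusted p = 0.0186) and Fmo2 by 0.96 (-0.96, SE 0.221, adjusted p = 0.0365), with all bleomycin arrays below both PBS arrays. Between the blockers after bleomycin, Aldh1a1, a retinal dehydrogenase that is also a club cell marker, rose by 0.38 (SE 0.0877, adjusted p = 0.0422) with the CAV1 blocker, and its groups did not overlap. The other 17 genes of its list did not pass, with all 18 differences above zero and a median of 0.14. Of the 20304 genes tested, 9266 lay above zero and 11038 below. No electron donor, receptor, flavin monooxygenase or P450 of higher family passed that test. The monocyte and macrophage markers had 1 of 6 genes lower (median -0.67), and the markers of club cells 1 of 7 higher, which was Aldh1a1. Calls of list genes were not followed in the fits that left out an array. Their dependence on single arrays was not tested.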

How the data were processed

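The values are log2 intensities, 1 array per sample, deposited by the authors; limma was used to make them, per the submitters' processing notes, while the background correction, scanner and any array dates are not given in the sources used here. Their distribution was nearly the same on every array, and the deposited values entered the fit unaltered. Marks of detection or saturation were not used here. Precision is limited by how many arrays each group holds.

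Of 62976 spots, 31465 had 1 gene symbol and 31511 none. RefSeq matched 29036, which changed 2933 symbols (names only, GRCm38.p6), and 104 of the 106 P450 spots matched. Genes above the 25th percentile of an array in at least 2 arrays were tested. One mean per group was fitted with limma 3.58.1 (R 4.3.3, lmFit and eBayes, 12 residual degrees of freedom), with Benjamini-Hochberg adjustment over all 20304 genes tested. The call is an adjusted p under 0.05, two-sided, and intervals are 95%. The fit was tested on simulated data. Members and lists were chosen with earlier results of these data known. Statistics are given for members called in any comparison, for the 8 with the highest mean, and, where none was called, for the 2 smallest p-values in each direction. Alternatives covered the filter on dim genes, spot choice, symbols, moderation, array weights, the arrays in the fit, blocks, marker covariates, a minimum difference, leaving out each array and, chosen after seeing the data, leaving out 1 pair of arrays. Where this leaves a group with 1 array, that array is assumed to vary like the other groups. Replicate numbers were not taken as a pairing of the samples.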

Additional observations from a re-analysis of the deposited data

Results flagged for a closer look

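Tests for a lone extreme array numbered 70 (35 P450 genes in the 2 groups of 6 arrays). In 2 of them an array stood far from the others of its group. Chance gives about 1 in 20, and the number found was not above that rate. Cyp4f17, a fatty acid hydroxylase gene, was at 9.90 in bleomycin CAV1 blocker array 6, with the next array of that group at 9.41. Cyp2j13, of the arachidonic acid epoxygenase subfamily, was at 7.68 in bleomycin CAV1 blocker array 2, with the next at 7.08.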

How the results depend on the processing

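The number of members called after bleomycin, averaged over both blockers (7), became 2 with array weights (Cyp2d22 and Cyp4f15) and 0 with the replicate block, and ranged from 3 to 8 when 1 array was left out (3 and 4 without array 2 or 1 of PBS with the CAV1 blocker). Under the control blocker (2) it became 0 with array weights, with only the arrays compared, with the replicate block and without PBS control blocker array 2 and bleomycin CAV1 blocker array 6 together (chosen after seeing the data), and 0 to 13 leaving out 1 array. Under the CAV1 blocker (0) it became 11 with array weights, 1 with the filter at the 50th percentile, 1 with the first and last 8 samples as a block, and 0 to 5 leaving out 1 array. After PBS (0) it became 1 without that pair of arrays and 0 to 9 leaving out 1 array, the highest without PBS control blocker array 1. The interaction (0) became 0 to 9, again highest without that array. The CAV1 blocker count after bleomycin (1) did not change in any setting run.

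Differences that turned sign were small or came with a covariate. Cyp2s1 after bleomycin became 0.02 with the replicate block (0.0215) and with the squamous covariate (0.0185), and ranged from -0.19 to 0.16 leaving out 1 array. Cyp2u1 after bleomycin became 0.16 without the pair of arrays and ranged from -0.33 to 0.20 leaving out 1 array, the highest without PBS control blocker array 2. With the skeletal muscle covariate, Cyp2c66 became -0.20 in the interaction and Cyp4f39 became 0.18 between the blockers after PBS. Of 16 pairs of arrays that shared a replicate number, 6 had deviations correlated above 0.1 (range -0.69 to 0.436). Of 6 bleomycin CAV1 blocker arrays, 2 were closest to their own number, and numbers were not taken as a pairing. The check was made over all genes and cannot exclude an effect shared by arrays of the same number. The causes of these changes were not tested. Single values near 6.5 are limited by the lower end of the scale.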
